A study of Mus musculus with 48 samples.

Results

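The adipocyte and lipid storage genes of mouse skin were described across hair cycle stages and body sites. The set comprised 40 genes, chosen by name for their roles in fat cells and lipid droplets, out of 46983 genes in each of the deposited tables. It held 3 transcriptional regulators, 5 lipid droplet proteins, 6 genes of lipolysis, 4 of fatty acid uptake and activation, 7 of triglyceride synthesis, 9 of fatty acid synthesis and its glucose supply, 4 secreted adipokines, the thermogenic gene Ucp1 and the carbonic anhydrase gene Car3. RNA-seq had been made from whole skin of the chin, the ventrum and the dorsum of C57BL/6 mice at competent telogen (the resting phase in which follicles can answer growth signals), early, mid and late anagen (growth), catagen (regression) and refractory telogen (the resting phase in which follicles ignore such signals). This gave 18 groups of 2 or 3 libraries and 43 libraries in all. A separate table held telogen skin of the rostral ear (2 libraries), the cartilage/muscle complex of the ear (3 libraries) and dorsal skin (2 libraries), and the last 2 were the dorsal competent telogen libraries of the skin table. All mice were of the C57BL/6 strain, and the labels name no treatment or other allele for any group. Nothing in the labels ties the libraries of a group to separate mice, so the p-values measure the spread between libraries, which may be technical.

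White fat lies in the dermis below the hair follicles, and this layer is known to thicken and thin with the hair cycle. In a fat cell, Pparg and Cebpa switch on the storage programme, and fatty acids are then taken up from blood or made from glucose, joined to glycerol as triglyceride and kept in a droplet coated by perilipins until lipases release them. Sebaceous glands, which fill their cells with lipid and shed it onto the hair, and skeletal muscle use parts of the same machinery. In whole skin, fewer fat cells and less RNA per fat cell cannot be told apart. Levels are given in FPKM (fragments scaled to transcript length and to library size), which are per length and so may be set side by side between genes. Log2 differences come from a limma model on log2(FPKM + 1), with p-values adjusted by the Benjamini-Hochberg method over all 21257 genes tested in skin or all 19299 tested in the ear table, and 0.05 as the threshold. The added 1 makes these differences understate the change of low genes.

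The libraries held an estimated 6.7 M to 29.0 M fragments each. Some stood apart from their labels or from their partners. The 2 chin late anagen libraries differed from the dorsal competent telogen libraries by a median of 0.09 to 0.10 on the log2 scale, no more than from each other (0.11), and their Hoxb7, a patterning gene of the trunk, was 7.25 and 8.41 FPKM against at most 0.770 in the other 12 chin libraries. Mki67, a gene of dividing cells, was 1.39 to 2.16 FPKM in refractory telogen of all domains and in ventral early anagen. It was 5.87 to 23.0 in every other skin library. Competent telogen was among the latter, with 13.3 and 13.5 FPKM in chin, 11.1 to 12.5 in ventral and 6.12 and 6.27 in dorsal skin. The highest values, 22.8 and 23.0 FPKM, were in dorsal catagen. Lef1 was 30.8 to 53.0 FPKM in competent telogen and at most 11.4 in refractory telogen. Stages are named below by their labels, and whether follicles labelled competent telogen were at rest was not tested. The 11 hair shaft genes measured summed to 16555 and 16742 FPKM in dorsal competent telogen against 5614 to 7272 in competent telogen of chin and ventrum. The 2 ventral refractory telogen libraries were the least alike of any pair (median difference 0.38), followed by the 2 chin mid-anagen libraries (0.28). One library labelled ventral catagen carries an ear location among its labels. Counts that rest on these groups are given below with and without single libraries where they moved by more than 1.5 times. Leaving out a whole group removes every comparison between groups that uses it, so such counts could not be checked in that way. Chin competent telogen was not left out as a group.

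Promoter sequences are shown for the gene that heads each role in the list of members, where the stretch of its promoter outside its own exons holds a match to a motif of the factors that govern fat cells. They show the letters upstream of a regulator, a droplet coat, an enzyme of triglyceride synthesis and the thermogenic gene. Where a gene had more than 1 start site, the one with the most matches was taken. The windows of Pparg and Gpam lie inside the annotated spans of these genes, at internal start sites. RefSeq promoters (GRCm38.p6) were at hand for 30 of the 40 genes, and the 250 bases before each start site were searched on both strands for 5 motifs: the DR1 element that PPAR and RXR bind, a pair of AGGTCA with 1 base between them; AGGTCA, a single nuclear receptor site that is also part of DR1; TTNNGCAA, a site of the C/EBP family; CACGTG, an E-box; and TCACNCCAC, a sterol response element. The Pparg sequence lies at chr6:115421816-115422065 on the plus strand and holds TTNNGCAA matches that begin 215 and 16 bases before the start. The Plin1 sequence lies at chr7:79732904-79733026 on the minus strand, the 123 bases of the window that are outside its own exons, and holds a TTNNGCAA match 187 bases before the start. The Gpam sequence lies at chr19:55099478-55099727 on the minus strand with an AGGTCA match 196 bases before the start, and that of Ucp1 at chr8:83290098-83290347 on the plus strand with an AGGTCA match 14 bases before the start. The match of Plin1 and the farther one of Pparg are on the opposite strand. Each sequence is written 5′ to 3′ on the strand of the gene, and capitals mark the match.
Pparg: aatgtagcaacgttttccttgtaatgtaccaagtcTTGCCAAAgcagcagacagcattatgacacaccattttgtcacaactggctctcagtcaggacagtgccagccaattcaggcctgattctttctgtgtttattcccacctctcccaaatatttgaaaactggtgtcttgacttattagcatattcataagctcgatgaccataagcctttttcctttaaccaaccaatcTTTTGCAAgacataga
Plin1: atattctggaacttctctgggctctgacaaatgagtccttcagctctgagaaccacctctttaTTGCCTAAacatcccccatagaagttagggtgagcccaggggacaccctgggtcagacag
Gpam: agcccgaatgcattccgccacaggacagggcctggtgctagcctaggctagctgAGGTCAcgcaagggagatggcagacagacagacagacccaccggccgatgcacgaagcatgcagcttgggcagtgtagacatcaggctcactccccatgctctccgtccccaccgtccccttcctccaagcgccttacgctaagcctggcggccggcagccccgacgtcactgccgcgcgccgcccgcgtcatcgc
Ucp1: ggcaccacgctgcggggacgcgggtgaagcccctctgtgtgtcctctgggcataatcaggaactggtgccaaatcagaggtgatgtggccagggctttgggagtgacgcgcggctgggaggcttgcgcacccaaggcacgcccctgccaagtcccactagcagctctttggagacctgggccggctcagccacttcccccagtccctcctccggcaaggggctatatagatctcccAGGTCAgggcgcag

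These 30 genes have 39 promoters in the table, some having more than 1 start site. DR1 was in none of the 39 promoters and in 0.0335% of all 32841 mouse promoters. The single site AGGTCA was in 28.2% of the promoters of the set and in 14.0% of all promoters, and the genes that held it were Acly, Aqp7, Cd36, Elovl6, Gpam, Lpin1, Plin2, Pparg and Ucp1. TTNNGCAA was in 10.3% against 9.57% of all (Cidec, Lep, Plin1 and Pparg), CACGTG in 5.13% against 6.02% (Lipe and Mgll) and TCACNCCAC in 2.56% against 1.05% (Acsl1). A match is a description of these letters only. Of the 4 genes with TTNNGCAA, Plin1, Cidec and Lep had their highest group mean at refractory telogen of ventral or chin skin and Pparg at ventral early anagen. Of the genes with AGGTCA, Aqp7, Cd36, Elovl6 and Pparg had it at ventral early anagen, Acly, Gpam and Plin2 at dorsal early anagen and Lpin1 at chin refractory telogen, while Ucp1 was too low to rank.

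Of the 40 genes, 39 passed the filter on low values in skin (at least 0.5 FPKM in 2 libraries), and Ucp1 did not. The course over the hair cycle differed between the domains for 39 of the 39 tested (interaction of domain and stage, adjusted p below the threshold), where 73.3% of all genes tested did. Within a domain, the stage effect was called for 38 in chin skin (66.2% of all genes), for 39 in ventral skin (70.2%) and for 37 in dorsal skin (68.5%). Acly in chin skin (adjusted p = 0.0711) and Ppargc1a (0.466) and Acaca (0.0548) in dorsal skin, all by limma, were the exceptions. Without the chin late anagen and dorsal competent telogen groups the interaction was called for 38 of the 39. The span between the highest and lowest of the 18 group means was 36.2-fold for Thrsp (a nuclear regulator of lipid synthesis genes), 34.6-fold for Plin1 (the droplet coat of fat cells), 24.3-fold for Lep, 24.2-fold for Cidec and 23.3-fold for Cfd. It was 1.80-fold for Me1 (malic enzyme, a source of NADPH), 2.32-fold for Plin2 (the droplet coat of most cell types) and 2.45-fold for Cebpa.

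**Figure D1:**
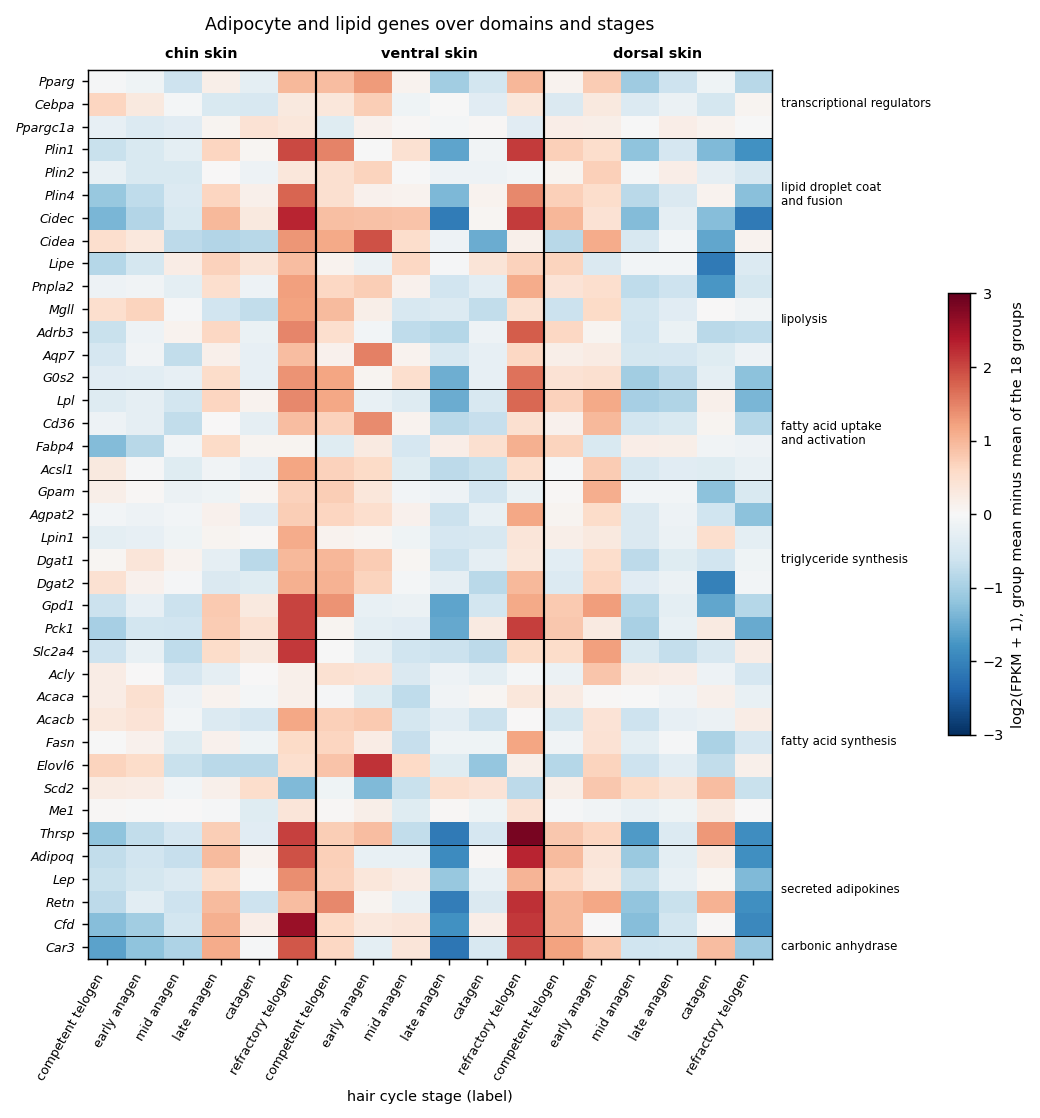
Mean log2(FPKM + 1) of the 39 members tested in the 18 groups of skin (columns, by domain and stage) minus the gene's own mean over the groups, with members in rows by role. The highest values fall mostly in refractory telogen of chin and ventral skin, and the lowest of Plin1, Cidec, Lep and Cfd fall in refractory telogen of dorsal skin.

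At refractory telogen, most of the storage genes were higher in chin and in ventral skin than in dorsal skin. In chin skin 36 of the 39 genes differed from dorsal skin (34.8% of all genes did), 35 of them higher (27.2% of all genes were higher) and only Scd2 lower, with a median log2 difference of 1.42 against 0.14 over all genes tested. In ventral skin 30 differed (13.7% of all genes), all 30 of them higher (8.10% of all genes were higher), with a median of 1.22 against −0.01. Both comparisons share the 2 dorsal libraries. The 2 ventral libraries were unlike each other for many genes: without replicate 1 the count was 24 higher and 4 lower, without replicate 2 it was 34 higher and none lower, and with the libraries of that stage alone it was 18. The calls of Acsl1, Aqp7, Lpin1, Plin2, Acaca and Me1 in ventral skin were lost without ventral replicate 1 and that of Mgll without ventral replicate 2. All of these and Dgat1 were also lost without one or the other dorsal library, as were those of Acaca, Acly, Elovl6 and Me1 in chin skin, the first 3 of which were also lost without 1 of the chin libraries.

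The droplet proteins of white fat showed the contrast most plainly. Plin1 (chr7:79720218-79732903, minus strand, mm10) was 23.83, 21.17 and 23.25 FPKM in chin skin, 27.22 and 22.56 FPKM in ventral skin, and 0.64 and 0.80 FPKM in dorsal skin. Every chin and ventral library lay above both dorsal ones, and the fitted differences were 3.79 ± 0.29 (SE, adjusted p = 5.03e-11) and 3.91 ± 0.32 (5.56e-10). Cidec, which fuses small droplets into the single large one of a white adipocyte, was 209.07, 154.34 and 194.09 FPKM in chin skin, 185.44 and 138.22 in ventral skin and 7.24 and 8.12 in dorsal skin. It was 24.2-fold and 21.1-fold higher than in dorsal skin by the means. Plin4, a further coat protein of adipocytes, was 13.3-fold higher in chin skin and 11.1-fold higher in ventral skin. The other 2 droplet genes moved less: Plin2 was 1.79-fold and 1.33-fold higher, and Cidea, a relative of Cidec found in sebaceous glands and brown fat, was 108.52 to 119.74 FPKM in chin skin but 48.13 and 51.23 in ventral skin against 45.72 and 49.58 in dorsal skin. Cidea was therefore called only for chin skin (log2 difference 1.22 ± 0.16), and it was higher there than in ventral skin too (1.16 ± 0.16, adjusted p = 2.24e-06).

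All 4 adipokines were higher in both domains than in dorsal skin, with median log2 differences of 3.24 in chin skin and 4.04 in ventral skin. Cfd (adipsin, a complement protease that fat secretes; chr10:79890853-79892655, plus strand) was 3619.23, 3649.72 and 3377.95 FPKM in chin skin, 1775.89 and 3600.28 in ventral skin and 156.31 and 147.98 in dorsal skin. Its log2 differences were 4.53 ± 0.24 (adjusted p = 1.51e-13) and 4.05 ± 0.27 (7.19e-12), and although the ventral libraries were unlike each other, both were above the dorsal ones. Adipoq (adiponectin, a hormone that raises insulin sensitivity; chr16:23146536-23158028, plus strand) was 352.79, 344.74 and 358.25 FPKM in chin skin, 421.05 and 509.61 in ventral skin and 25.27 and 25.59 in dorsal skin, which gave 13.8-fold and 18.3-fold higher means. Retn (resistin) was the adipokine that set the ventrum apart: 260.36 and 331.09 FPKM there, 111.89 to 128.54 in chin skin and 16.18 and 17.86 in dorsal skin. The lower chin level of Retn passed the test against ventral skin (−1.28 ± 0.19, adjusted p = 4.56e-06). Lep (leptin, the satiety hormone) was low throughout: 7.70 to 7.85 FPKM in chin skin, 10.82 and 2.90 in ventral skin, 0.33 and 0.31 in dorsal skin.

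**Figure D2:**
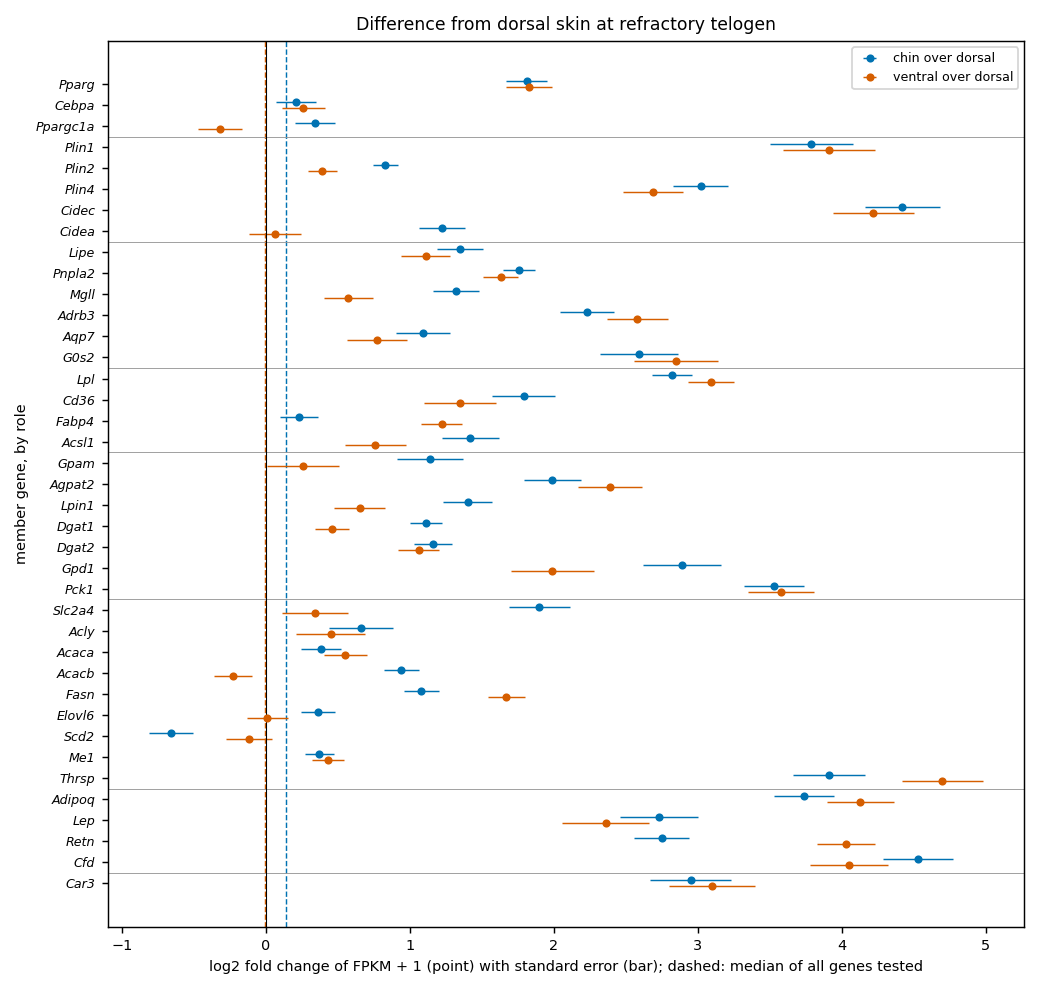
Log2 differences at refractory telogen with their standard errors for the 39 tested members, chin over dorsal skin and ventral over dorsal skin, with lines at the medians of all genes tested (0.14 and −0.01). Cfd, Cidec, Thrsp, Plin1 and Adipoq sit at 3.74 or more in both comparisons, and Scd2 is the one member below 0 with a called difference.

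The genes of lipolysis were higher in 6 of 6 cases in each domain. Pnpla2 (ATGL), which takes the first fatty acid off a triglyceride, was 3.54-fold and 3.21-fold higher than in dorsal skin, Lipe (hormone-sensitive lipase), which takes the next, 2.63-fold and 2.31-fold, and Mgll, which takes the last, 2.51-fold and 1.51-fold. G0s2, the inhibitor of Pnpla2, was 50.41, 48.91 and 38.96 FPKM in chin skin, 41.72 and 72.95 in ventral skin and 6.89 and 6.65 in dorsal skin. The enzyme and its inhibitor thus moved the same way, with log2 differences of 1.76 ± 0.11 and 2.59 ± 0.27 in chin skin. Adrb3, the adrenaline receptor that starts lipolysis in fat cells, was 7.81 to 8.94 FPKM in chin skin, 12.32 and 9.46 in ventral skin and 1.07 and 0.89 in dorsal skin. Aqp7, the channel through which glycerol leaves, differed least of the 6 in chin skin (1.09 ± 0.19, adjusted p = 5.11e-05).

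Of the uptake genes, Lpl, which frees fatty acids from lipoproteins in the capillaries, was 134.38, 108.07 and 133.67 FPKM in chin skin, 179.48 and 125.88 in ventral skin and 16.62 and 16.97 in dorsal skin. Every library of both domains was above the dorsal ones (log2 differences 2.82 ± 0.14 and 3.09 ± 0.16). Fabp4, the fatty acid carrier of fat cells, had the highest level of the 40 genes over the 43 libraries (mean 1268 FPKM) and behaved otherwise. It was 1054.14 and 1084.34 FPKM in dorsal skin and 1187.99 to 1329.39 in chin skin, a difference that was not called (adjusted p = 0.172), and 2387.67 and 2590.74 in ventral skin (2.33-fold higher than dorsal skin, adjusted p = 3.24e-07). Fabp4 is also made by capillary endothelium and macrophages. The transporter Cd36 and the activating enzyme Acsl1 were higher in chin skin (3.55-fold and 2.76-fold). In ventral skin their libraries disagreed: Cd36 was 131.53 and 43.30 FPKM and Acsl1 54.71 and 19.55 FPKM, the lower library of Acsl1 lying between the dorsal ones (19.81 and 18.10).

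For triglyceride synthesis, 7 of 7 genes were above dorsal skin in the chin and 6 of 7 in the ventrum. The largest differences were at the glycerol end of the pathway. Pck1, which supplies glycerol phosphate from pyruvate in fat cells, was 36.85, 30.23 and 35.95 FPKM in chin skin, 49.03 and 25.69 in ventral skin and 2.06 and 2.04 in dorsal skin. Gpd1, which supplies it from glucose, was 68.63, 54.37 and 71.82 FPKM, 62.34 and 18.50 FPKM, and 7.81 and 7.85 FPKM in the same order. Both were above dorsal skin in every library, with log2 differences in chin skin of 3.53 ± 0.21 and 2.89 ± 0.27. The enzymes that build on it, of which Lpin1 is a phosphatase and the others are acyltransferases, moved less: Agpat2 was 4.23-fold, Lpin1 3.71-fold, Gpam 3.11-fold, Dgat2 2.24-fold and Dgat1 2.21-fold higher in chin than in dorsal skin. Gpam, which starts the pathway, was 3.88 and 0.62 FPKM in ventral skin, on either side of the dorsal values of 1.29 and 1.40, and was not called there (adjusted p = 0.591). Without ventral replicate 2 it was higher than in dorsal skin and without replicate 1 it was lower.

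The fatty acid synthesis genes were the least uniform group. In chin skin 8 of 9 were higher than in dorsal skin and Scd2 was lower, with a median log2 difference of 0.66, and in ventral skin 4 of 9 were higher, with a median of 0.43. Thrsp, which is induced by carbohydrate feeding, was 125.62, 108.49 and 124.98 FPKM in chin skin, 225.53 and 192.01 in ventral skin and 6.78 and 7.28 in dorsal skin. Fasn, the synthase that builds palmitate, was 59.65 to 73.65 FPKM in chin skin, 108.37 and 97.56 in ventral skin and 32.05 and 31.00 in dorsal skin, so that the 3 domains did not overlap. Slc2a4 (GLUT4), the insulin-dependent glucose transporter of fat and muscle, was 22.91, 14.13 and 20.36 FPKM in chin skin against 8.02 and 3.99 in ventral skin and 4.70 and 3.95 in dorsal skin. It was higher in chin skin than in ventral skin (1.56 ± 0.21, adjusted p = 1.89e-06), and the 14 muscle genes listed moved with it, summing to 14524 to 23297 FPKM in chin skin, 1346 to 1379 in ventral skin and 4656 to 4774 in dorsal skin. Their part in the Slc2a4 values was not tested. Elovl6, which lengthens palmitate, was 103.39 to 119.42 FPKM in chin skin, 88.49 and 89.93 in ventral skin and 88.76 and 87.83 in dorsal skin, and of the 2 differences from dorsal skin only that of chin skin was called (0.36 ± 0.12, adjusted p = 0.0245). Scd2, a desaturase found in many tissues, ran the other way in chin skin, at 8.55, 7.69 and 7.57 FPKM against 13.18 and 13.06 in dorsal skin (−0.66 ± 0.15, adjusted p = 0.000807).

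Of the regulators, Pparg (chr6:115360951-115490399, plus strand), the master switch of fat cell formation, was 15.20, 13.15 and 14.65 FPKM in chin skin, 17.36 and 12.03 in ventral skin and 3.59 and 3.15 in dorsal skin. It was 4.25-fold and 4.36-fold higher (adjusted p = 9.45e-11 and 1.66e-09). Its partner Cebpa was 42.64 to 53.97 FPKM in chin skin and 41.80 and 59.82 in ventral skin against 43.19 and 39.87 in dorsal skin and was called in neither (adjusted p = 0.258 and 0.289), although without ventral replicate 2 the ventral difference was. Cebpa is also made in the sebaceous gland and upper epidermis. Ppargc1a, a coactivator of mitochondrial genes, was at most 2.48 FPKM in any skin library and was called in neither comparison with dorsal skin, but it was higher in chin skin without chin replicate 2, or without either ventral library, and lower in ventral skin without ventral replicate 1. Car3, an abundant carbonic anhydrase of fat cells and slow muscle, was 1905.40, 1532.40 and 1850.12 FPKM in chin skin, 2434.16 and 1557.81 in ventral skin and 224.47 and 229.40 in dorsal skin.

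Chin and ventral skin at refractory telogen differed in 17 of the 39 genes (30.7% of all genes), 12 higher (24.7% of all genes) and 5 lower in chin skin. The higher ones were Slc2a4, Acacb (1.17 ± 0.12), Cidea, Ppargc1a, Mgll, Dgat1, Gpam, Gpd1, Lpin1, Acsl1, Plin2 and Elovl6, and the lower ones were Retn, Fabp4 (−0.98 ± 0.13), Thrsp, Fasn and Scd2. Plin1, Cidec and Adipoq were not called between them, and neither were Cfd and Lep, which became higher in chin skin without ventral replicate 2 and replicate 1 respectively. The calls of Gpam, Gpd1, Lpin1, Acsl1, Plin2 and Elovl6 were lost without ventral replicate 2 and those of Thrsp, Scd2 and Elovl6 without ventral replicate 1, and the count was 7 higher and 9 lower without replicate 2 and 19 and 3 without replicate 1. The split was 9 higher and 11 lower with median-of-ratios scaling and 14 and 3 with TPM scaling, and the count was 9 when only the libraries of that stage were fitted.

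Other cell types moved with these differences. The 10 macrophage genes summed to 547 to 956 FPKM in chin skin, 387 to 415 in ventral skin and 83.9 to 89.6 in dorsal skin, and 10 and 9 of them were higher than in dorsal skin. The 11 sebaceous genes tested summed to 1719 to 1787, 1310 to 1796 and 830 to 887 FPKM, and 10 were higher in chin skin, while 2 were higher and 2 lower in ventral skin. Of these sums, Mgst1 alone had means of 1149, 1069 and 590 FPKM in chin, ventral and dorsal skin. The muscle genes were higher in chin skin (14 of 14) and lower in ventral skin (14 of 14) than in dorsal skin. Hair shaft genes summed to 4234 to 6244 FPKM in chin skin, 11614 to 14596 in ventral skin and 12011 to 12119 in dorsal skin. The part of these cell types in the values of the 40 genes was not tested.

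Through the cycle, each domain had its own course. In chin skin 31 of the 39 genes that passed the filter had their highest stage mean at refractory telogen, and 16 had their lowest at competent telogen and 11 at mid-anagen. In ventral skin 24 were highest at refractory telogen, 9 at early anagen and 5 at competent telogen, and 23 were lowest at late anagen. In dorsal skin 22 were highest at early anagen and 13 at competent telogen, and 18 were lowest at refractory telogen. Refractory telogen thus held the highest mean of most of these genes in chin and ventral skin and the lowest of 18 in dorsal skin. The highest and lowest stages were not counted over all genes, of which 66.2% to 70.2% had a stage effect. These counts therefore describe the 39 genes only and do not set them apart from other genes.

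In chin skin, 35 of the 39 genes changed from competent to refractory telogen (36.3% of all genes), 33 up (17.8% of all genes) and 2 down, with a median log2 difference of 1.39 against 0.00 over all genes. Cfd rose from 255.69 and 226.37 FPKM to at least 3377.95 FPKM in each library (3.88 ± 0.24), Cidec from 13.34 and 13.77 FPKM to at least 154.34 FPKM (3.67 ± 0.26), and Pck1 from 2.68 and 4.04 FPKM to at least 30.23 (3.03 ± 0.21). Slc2a4 rose 9.76-fold by the means, from 1.95 and 1.97 FPKM. All 14 muscle genes rose between the same stages, summing to 650 to 670 FPKM at competent and 14524 to 23297 FPKM at refractory telogen, and so did all 10 macrophage genes (122 to 128 and 547 to 956 FPKM) and 7 of the 11 sebaceous genes, while 7 of 11 hair shaft genes fell. Their part in the values of the members was not tested. Scd2 fell (−1.56 ± 0.15), from 26.18 and 24.48 FPKM, and Cebpa was just past the threshold (−0.35 ± 0.14, adjusted p = 0.0494), a call that was lost in 31 of the 43 fits that each left out 1 library. Between competent telogen and late anagen 27 genes differed (37.9% of all genes), 20 up (9.02% of all genes) and 7 down. Fabp4 rose 3.64-fold, from 459.26 and 500.68 FPKM to 1733.46 and 1758.73 FPKM, while Elovl6 fell from 132.46 and 123.05 FPKM to 42.86 and 46.27 FPKM (−1.50 ± 0.14) and Cidea 2.65-fold. The muscle genes (14 of 14 up) and macrophage genes (9 of 10 up) moved with this comparison too, and 7 of 11 sebaceous genes fell. The late anagen libraries are those that lay as close to dorsal competent telogen as to each other: Adipoq was 184.50 and 181.30 FPKM in them and 181.89 and 183.22 FPKM in dorsal competent telogen.

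In ventral skin, late anagen was the low point. Between competent telogen and late anagen 36 of the 39 genes differed (44.2% of all genes), 33 of them lower (35.1% of all genes), with a median of −1.31 against −0.20. Retn fell from 194.18, 147.15 and 184.02 FPKM to 13.45, 15.10 and 14.17 FPKM (−3.52 ± 0.17, adjusted p = 5.95e-16). Plin1 fell from 20.22, 13.75 and 14.17 FPKM to 0.76, 1.08 and 1.26 FPKM, and Lpl from 112.76, 84.01 and 110.68 FPKM to 15.82, 14.53 and 16.17 FPKM. In none of these genes did the 2 stages overlap. The 10 macrophage genes fell too, from sums of 472 to 578 FPKM to 89.5 to 98.2 FPKM, as did 8 of 11 sebaceous genes (1826 to 2228 and 1283 to 1319 FPKM), while 14 of 14 muscle genes rose (293 to 321 and 1370 to 1410 FPKM). Their part in the members' values was not tested. The 3 members that rose were Fabp4 (0.55 ± 0.12), Scd2 (0.65 ± 0.13) and Ppargc1a (0.31 ± 0.13), the last lost in 22 of the 43 fits that left out 1 library. Between competent and refractory telogen 26 genes differed (42.6% of all genes), 18 up (8.12% of all genes) and 8 down: Thrsp rose 4.31-fold, Pck1 4.54-fold and Cfd 2.98-fold, while Cidea (−0.98 ± 0.16), Gpam, Acacb, Elovl6, Dgat1, Scd2, Plin2 and Mgll fell. Without ventral refractory telogen replicate 2 the calls of Gpam and Scd2 were lost, without replicate 1 that of Mgll, which was lost without ventral competent telogen replicate 1 too, and the counts were 24 up and 6 down and 12 and 12. This split was 26 up and 3 down with median-of-ratios scaling and 10 and 9 with TPM scaling. Between these stages 9 of 11 sebaceous genes fell and 12 of 14 muscle genes rose.

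In dorsal skin the change from competent to refractory telogen was mostly in the direction opposite to that of chin skin. Of the 39 genes, 29 differed (22.2% of all genes), 24 lower (11.3% of all genes) and 5 higher, with a median of −0.84 against 0.00. Cidec fell from 74.67 and 75.01 FPKM to 7.24 and 8.12 FPKM (−3.13 ± 0.28), Cfd from 1155.24 and 1137.67 FPKM to 156.31 and 147.98 FPKM (−2.91 ± 0.27), Adipoq from 181.89 and 183.22 FPKM to 25.27 and 25.59 FPKM (−2.80 ± 0.23) and Retn from 124.04 and 124.20 FPKM to 17.86 and 16.18 FPKM (−2.80 ± 0.20). The 5 that rose were Elovl6 (1.00 ± 0.14), Cidea (0.94 ± 0.18), Acacb (0.75 ± 0.13), Mgll (0.54 ± 0.17) and Cebpa (0.52 ± 0.15). Mgll was lost without dorsal competent telogen replicate 2 or either refractory telogen library, and Cebpa without either competent telogen library or refractory telogen replicate 1. Between competent telogen and late anagen 22 genes differed (17.3% of all genes), 20 lower (5.86% of all genes) and 2 higher, and Lpl (−1.58 ± 0.14) and Car3 (−1.76 ± 0.28) were among the lower. All 10 macrophage genes were lower than at competent telogen in both comparisons, with sums of 422 FPKM at competent telogen, 123 to 124 at late anagen and 83.9 to 89.6 at refractory telogen. The muscle genes, of which slow muscle shares Car3 with fat, were lower at late anagen in 14 of 14 cases (6935 to 7001 FPKM at competent telogen and 551 to 583 at late anagen) and at refractory telogen in 1 of 14. Of the 11 hair shaft genes, 5 were lower at refractory telogen, and at late anagen 2 were higher and 1 lower. Of the 11 sebaceous genes, 5 were higher and 1 lower at refractory telogen, and at late anagen 8 were higher and none lower. Their part in the members' values was not tested.

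Dorsal catagen held extreme values of several genes. Dgat2, which joins the last fatty acid to a triglyceride, was 19.97 and 17.22 FPKM there against 44.42 or more in every other skin library, Lipe was 5.60 and 4.88 against 13.49 or more, and Gpam 0.32 and 0.43 against 0.62 or more. Scd2 was at its highest there (42.66 and 40.58 FPKM), and Thrsp was 70.43 and 71.06 FPKM while Plin1 was 1.19 and 1.66 FPKM. In these 2 libraries the deviation of a gene from its mean over the other dorsal groups ran with its GC content (r = −0.36 over 9449 genes with a mean above 5 FPKM and −0.37 over the 40 genes, a description across genes of 2 libraries). Its part in these values was not tested.

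**Figure D3:**
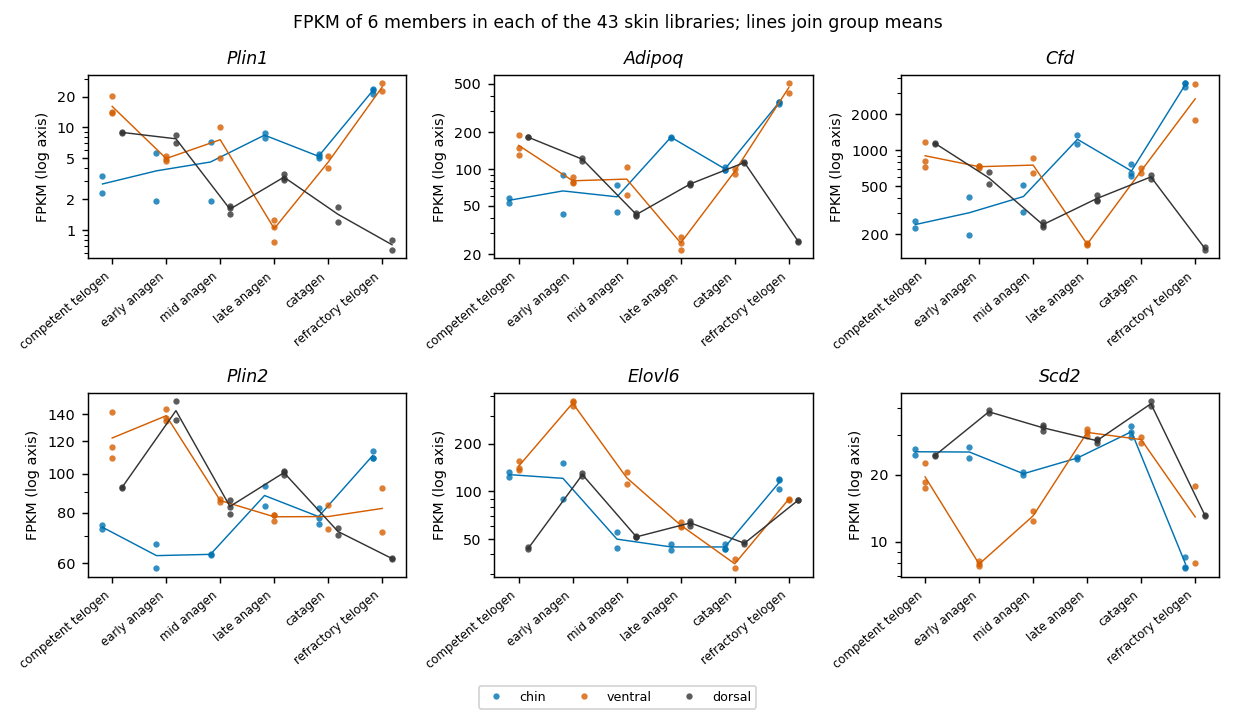
FPKM on a log axis by stage for Plin1, Adipoq, Cfd, Plin2, Elovl6 and Scd2 in chin, ventral and dorsal skin, with a point for each library and lines through the group means. Plin1, Adipoq and Cfd end high in chin and ventral skin and low in dorsal skin, Elovl6 peaks in ventral early anagen (345.00 to 370.89 FPKM), and Scd2 is lowest at refractory telogen of chin and dorsal skin and ventral early anagen.

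The order of the domains changed with the stage. At competent telogen chin skin was the lowest: 29 of the 39 genes differed from ventral skin (23.0% of all genes), all 29 lower (15.5% of all genes), with a median of −0.77, and 29 differed from dorsal skin (36.7% of all genes), 22 of them lower (9.29% of all genes). Adipoq was 58.37 and 52.71 FPKM in chin skin, 190.56, 130.73 and 148.72 in ventral skin and 181.89 and 183.22 in dorsal skin. Between ventral and dorsal skin 24 genes differed (47.9% of all genes), 19 higher (38.0% of all genes) and 5 lower in ventral skin, but the split was 9 and 13 with median-of-ratios scaling and 10 and 10 after GC adjustment, and the count was 15 without dorsal competent telogen replicate 1. At early anagen chin skin was again below dorsal skin in 27 of the 28 genes that differed (27.0% of all genes differed and 16.7% were lower), a count that was 18 without chin replicate 1, and below ventral skin in 21 of 24 (32.9% and 13.0%). Ventral and dorsal skin differed in 18 genes (41.7% of all genes), 8 higher and 10 lower in ventral skin, which became 13 and 6 with median-of-ratios scaling and 11 and 7 after GC adjustment. Elovl6 reached its highest level of all groups here, at 370.89, 368.16 and 345.00 FPKM in ventral skin against 130.34 and 125.04 in dorsal skin and 151.99 and 89.91 in chin skin. This ventral group is the one labelled early anagen whose Mki67 and Lef1 were as low as in refractory telogen. Dorsal early anagen held the highest group means of Plin2, Gpam and Acly.

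At mid-anagen ventral skin was above dorsal skin in 21 of the 26 genes that differed (28.3% of all genes differed and 12.1% were higher), with a median of 0.64. Plin1 was 10.11 and 5.09 FPKM in ventral skin and 1.73, 1.44 and 1.63 in dorsal skin, and Cidec 87.44 and 51.45 against 12.58, 17.11 and 13.95. The count was 16 without ventral mid-anagen replicate 1 and 17 with the libraries of that stage alone. Chin skin differed from dorsal skin in 16 genes (17.2% of all genes), 13 of them higher (7.18% of all genes), and from ventral skin in 16 (22.1% of all genes), 6 of them higher. The chin libraries were unlike each other, Plin1 being 7.28 and 1.94 FPKM in them. The count against dorsal skin was 7 without chin replicate 1, 10 without dorsal replicate 2, 8 without dorsal replicate 3 and 3 with the libraries of that stage alone, and the count against ventral skin was 6 without chin replicate 2, 9 without ventral replicate 1 and 4 with that stage alone. With TPM scaling the splits were 4 higher and 6 lower, and 2 higher and 12 lower.

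At late anagen ventral skin fell below the others. It was lower than dorsal skin in 14 of 14 genes that differed, where 3.14% of all genes differed and 1.67% were lower, with a median of −0.35. These were Cidec (−1.83 ± 0.23), Thrsp, Car3, Adipoq, Retn, Pck1, Gpd1, Cfd, Plin1, Lep, Plin4, Adrb3, Lpl and Plin2. Cidec was 8.58, 7.09 and 7.77 FPKM in ventral skin and 32.15, 29.04 and 29.50 in dorsal skin, and Adipoq 27.89, 24.88 and 21.77 against 76.71, 74.52 and 76.08. The libraries of the 2 domains did not overlap in either gene. The calls of Plin1, Lep, Adrb3 and Plin2 were lost without ventral replicate 2. Those of Plin1 and Adrb3 were also lost without ventral replicate 1 or dorsal replicate 3, that of Plin1 without dorsal replicate 2, that of Adrb3 without dorsal replicate 1, and that of Lep without any 1 of the 6 libraries. With the libraries of that stage alone the count was 22, of which 1 was higher and 21 were lower in ventral skin. The chin libraries of this stage were above dorsal skin in 19 of 21 genes that differed (19.5% of all genes differed and 5.78% were higher) and above ventral skin in 24 of 27 (15.6% and 5.99%). These are the libraries that lay as close to dorsal competent telogen as to each other and whose Hoxb7 stood apart from other chin skin. Whether their counts describe chin skin is therefore not settled. At catagen chin and dorsal skin differed in 19 genes (41.3% of all genes; 11 higher in chin skin, or 12 of 17 with TPM scaling) and ventral and dorsal skin in 23 (35.4%; 11 higher; 15 without dorsal catagen replicate 1). Chin and ventral skin differed in 5 (5.19%), with Slc2a4 (1.08 ± 0.21), Cidea, Lpl and Dgat2 higher and Dgat1 lower in chin skin, a count that was 2 without either ventral catagen library, 13 without either ventral refractory telogen library, 8 with TPM scaling and 11 with the libraries of that stage alone. The call of Dgat2 there was lost in 17 of the 43 fits that left out 1 library and under 3 of 12 other settings, and that of Lpl without either ventral library or chin replicate 2. Cidea was lost without ventral catagen replicate 1 and Dgat1 without replicate 2.

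The genes did not vary as 1 block. Over the 18 group means of log2(FPKM + 1), the correlation with Plin1 was 0.8 or more for 14 of the other 38 genes tested, 0.5 to 0.8 for 13 and under 0.5 for 11, with a median of 0.66. Cidec and G0s2 were the closest (r = 0.96), followed by Agpat2, Gpd1 and Lep (0.92), Cfd (0.91) and Adipoq and Plin4 (0.90). Scd2 (−0.46) was below 0. Without dorsal catagen the values of G0s2, Lep and Adipoq were 0.98, 0.97 and 0.96. Another course was that of the sebaceous gland list: with its mean, Cidea had r = 0.93, Elovl6 0.87, Gpam 0.79, Dgat1 0.78 and Plin2 0.76, and 13 genes were closer to it than to Plin1. Slc2a4 had 0.78 and Ppargc1a and Lpin1 0.60 with the mean of the muscle list. The 18 points share domains, stages and libraries, so these values are descriptions. Among 8754 protein-coding genes outside the set with a mean of at least 5 FPKM, those most like the mean of the 39 tested members were Pcx (0.96; pyruvate carboxylase, which feeds citrate to fat synthesis), Hfe, Gstt1, Cdo1 and Ifnar2 (0.94 each). Pcx was 20.9 FPKM in chin, 17.3 in ventral and 2.98 in dorsal refractory telogen, and Cdo1, an enzyme of cysteine breakdown, 52.1, 64.1 and 3.87.

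**Figure D4:**
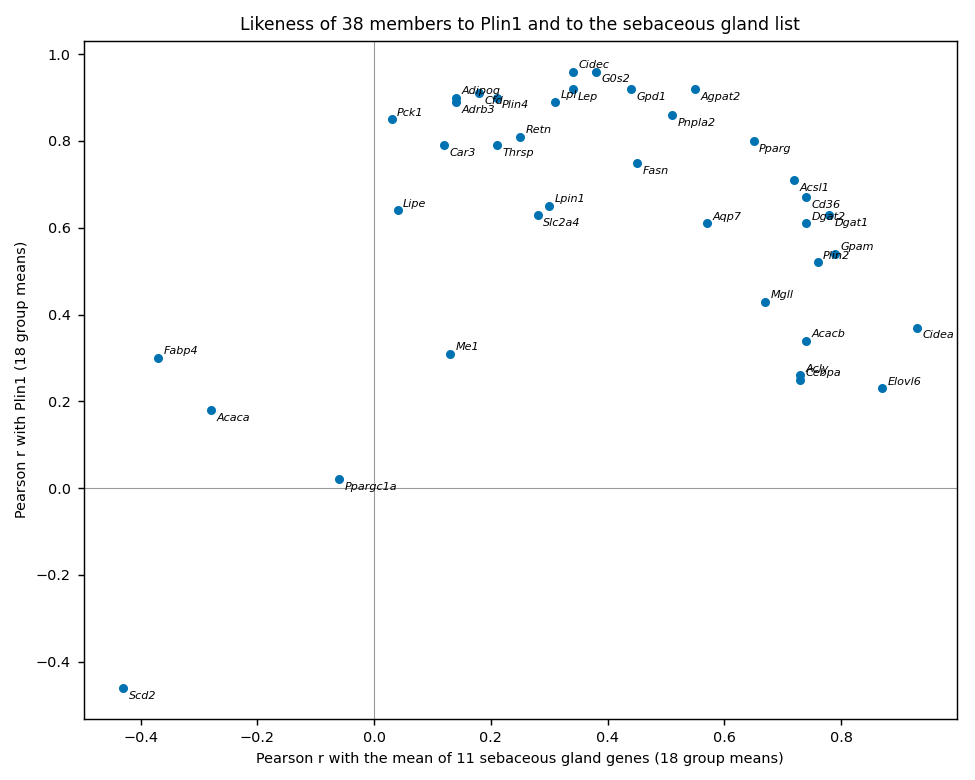
Correlation over the 18 group means of 38 members with the mean of the sebaceous gland list (horizontal axis) and with Plin1 (vertical axis), on log2(FPKM + 1). Cidec and G0s2 lie at the top with 0.96, Cidea and Elovl6 at the right with 0.93 and 0.87, and Scd2 is below 0 on both axes.

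Ucp1, which makes brown fat burn fuel for heat, was at most 0.25 FPKM in any skin library. Its highest values were 0.25, 0.20 and 0.22 FPKM in ventral early anagen and 0.13 and 0.15 in dorsal early anagen, and the other 38 libraries were at 0.10 or below. These are too low to compare. Of the other genes of fat and lipid handling (35 tested), 25 were higher and 2 lower in chin than in dorsal skin at refractory telogen, with a median of 0.80, and 17 were higher and 1 lower in ventral skin, with a median of 0.48. Among the 4 of highest level, Bscl2 (seipin, which forms droplets at the endoplasmic reticulum) was higher in both domains (0.35 ± 0.11 and 0.50 ± 0.13), Fabp5, an epidermal fatty acid carrier, was lower in chin skin (−0.61 ± 0.17), Orm1 was called in ventral but not in chin skin (0.62 ± 0.18) and Cebpb was called in neither. Of 10 genes of adipocyte precursors, 7 were higher in chin and 5 in ventral skin than in dorsal skin and none were lower. Of 8 brown adipocyte genes, 4 were higher in chin skin, and 1 was higher and 3 were lower in ventral skin. Of 10 genes of blood vessel endothelium 8 and 4 were higher, and of 7 genes of mammary epithelium 2 were higher and 2 lower in chin skin and 6 were higher in ventral skin.

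In the ear table all 40 genes passed the filter, Ucp1 through the complex alone, so that its place among the genes higher in the complex follows from the filter. Ear skin differed from dorsal skin in 34 (59.3% of all genes did), 20 higher (44.7% of all genes) and 14 lower, the cartilage/muscle complex differed from dorsal skin in 32 (71.1%), 23 higher (42.8%) and 9 lower, and the complex differed from ear skin in 36 (66.5%), 23 higher (28.0%) and 13 lower. The comparisons share libraries. With median-of-ratios scaling the first 2 splits were 15 and 19, and 20 and 16, and after GC adjustment 16 and 18, and 21 and 16. The dorsal libraries of this table are the competent telogen libraries, in which 13 of 39 genes had their highest dorsal mean in the skin table. With dorsal refractory telogen in their place, 32 of 35 were higher in ear skin and 35 of 38 in the complex.

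G0s2, the inhibitor of the lipase Pnpla2, had the largest difference in the complex. It was 1099.45, 1280.72 and 1083.94 FPKM there, 63.03 and 54.62 in ear skin and 22.35 and 25.10 in dorsal skin, and its highest value in any of the 43 libraries of the skin table was 72.95 FPKM. It was 48.7-fold above dorsal skin (5.54 ± 0.11, adjusted p = 1.17e-07) and 19.6-fold above ear skin (4.27 ± 0.11, adjusted p = 4.12e-07). Pnpla2 itself was 131.38, 152.16 and 126.10 FPKM in the complex against 44.36 and 37.46 in ear skin and 36.39 and 36.87 in dorsal skin. Plin1 was 43.67, 56.44 and 41.31 FPKM against 16.72 and 13.56 in ear skin, and Pparg 34.48, 35.19 and 35.00 FPKM against 18.33 and 17.77 in ear skin and 7.73 and 6.99 in dorsal skin. For all 4 genes the complex lay above every other library of the table. Slc2a4 was 39.83, 47.96 and 37.62 FPKM in the complex and at most 6.77 FPKM in the other 4 libraries, and the muscle genes summed to 24497 to 28007 FPKM there, 1528 to 1566 in ear skin and 6935 to 7001 in dorsal skin. Their part in these values was not tested. Cfd (976.16, 1135.77 and 929.77 FPKM), Adipoq and Thrsp in the complex were not called against dorsal skin, but all 3 were lower with median-of-ratios scaling (−0.58, −0.50 and −0.44) and after GC adjustment, and higher against dorsal refractory telogen (2.72, 2.70 and 2.61).

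Ear skin had another profile. Cidea was 381.92 and 345.79 FPKM there, 70.52, 78.79 and 69.37 in the complex and 23.33 and 25.50 in dorsal skin, 14.9-fold above dorsal skin (3.84 ± 0.09). Mgll was 924.69 and 786.19 FPKM against 76.86 and 67.38 in dorsal skin (11.9-fold), Acacb, which makes the malonyl-CoA that brakes fatty acid burning, was 8.52-fold and Dgat1 5.01-fold higher, and Elovl6 was 160.78 and 146.87 FPKM against 44.33 and 43.19. In the complex Elovl6 was 11.05, 11.48 and 8.79 FPKM, so the 3 tissues did not overlap. Over the skin groups these 5 genes had r of 0.67 to 0.93 with the mean of the sebaceous list, and the 11 sebaceous genes summed to 2666 and 2807 FPKM in ear skin, 882 to 900 in the complex and 1047 and 1051 in dorsal skin. Scd1 and Mgst1 had means of 667 and 196 FPKM in the complex and made up most of its sum. Against dorsal skin, 10 of the 11 genes were higher in ear skin, and 9 were lower and 1 higher in the complex. In the complex, Scd3, Mc5r, Awat2, Dgat2l6 and Pnpla5 were under 0.5 FPKM. Other lists differed between ear and dorsal skin as well: macrophage and endothelial genes were higher in 9 of 10 cases each and precursor genes in 9 of 10 (1 lower), muscle genes were lower in 14 of 14, and hair shaft genes were lower in 11 of 11, summing to 108 to 112 FPKM in ear skin. The part of these lists in the members' values was not tested. Against dorsal skin the adipokines were lower in ear skin in 3 of 4 cases: Cfd was 307.13 and 248.67 FPKM against 1155.24 and 1137.67 (−2.05 ± 0.13), and Adipoq 107.68 and 100.77 against 181.89 and 183.22. Against dorsal refractory telogen both were higher in ear skin (log2 differences of 0.86 and 1.99). Fabp4 was 364.39 and 374.15 FPKM against 1874.13 and 1873.14 (−2.34 ± 0.07), and Adrb3 0.14 and 0.23 FPKM against 4.93 and 3.44.

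Ucp1 passed the filter only through the complex, where it was 1.65, 2.22 and 1.24 FPKM, against 0.07 and 0.17 in ear skin and 0 in both dorsal libraries. Of the 10 brown adipocyte genes listed, 8 were tested in this table, and against dorsal skin 6 were higher and 2 lower in the complex. Cox8b had a mean of 692 FPKM in the complex and 159 in dorsal skin, Cox7a1 348 and 61.3, and Cpt1b 19.1 and 3.45, and all 3 are also genes of muscle mitochondria. Elovl3 was at a mean of 0.367 FPKM in the complex and 660 in ear skin, and Zic1, Slc27a2 and Kng2 were under 0.5 FPKM in the complex. Which cells held the Ucp1 reads was not tested.

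**Figure D5:**
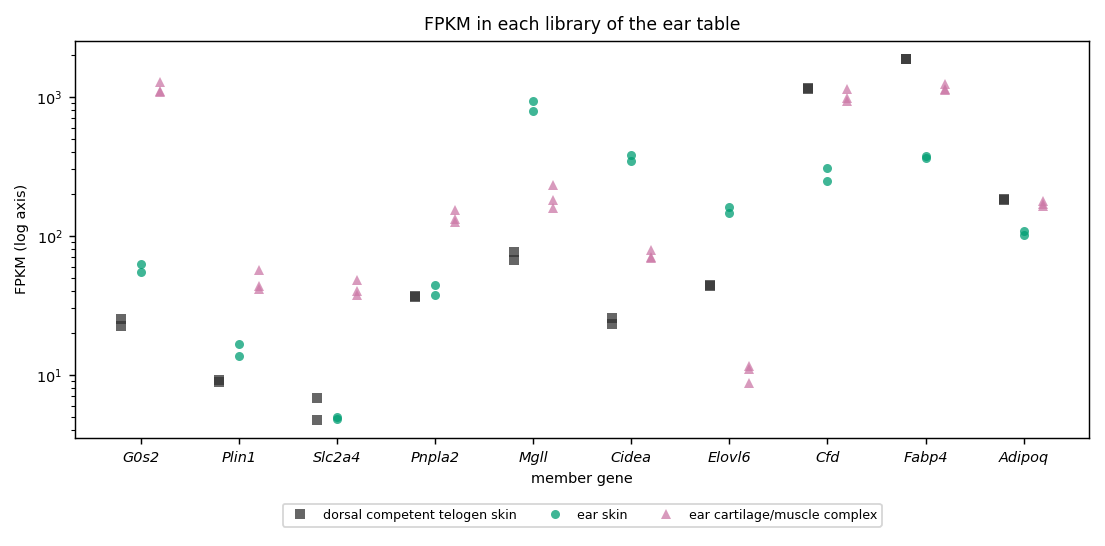
FPKM on a log axis of 10 members in each of the 7 libraries of ear skin, ear cartilage/muscle complex and dorsal skin. G0s2 stands at 1083.94 to 1280.72 FPKM in the complex, above every other library, Cidea and Mgll are highest in ear skin, and Elovl6 is lowest in the complex.

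The library protocol does not keep the strand, so reads of exons that overlap a gene on the other strand cannot be assigned to 1 of the genes. This touches 10 of the 40 genes: Agpat2 (with Egfl7), Lipe (with 4732471J01Rik), Plin4 (with Hdgfl2), Cebpa (with Gm45091), Mgll (with Gm26588), Adrb3 (with Gm45470), Acsl1 (with Gm45244), Gpd1 (with Gm16537), Elovl6 (with Gm35986) and Me1 (with A330041J22Rik). Scd2 shares exon bases with Mir5114 on its own strand.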

How the data were processed

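Whole-skin RNA of chin, ventral and dorsal domains at 6 hair cycle stages, and of 2 ear tissues, had been made into libraries by the SMART-seq2 method with tagmentation, which does not keep the strand. The authors aligned the reads to mm10, estimated transcript abundance with RSEM 1.2.25 on GENCODE annotation and deposited FPKM values with 2 decimals, in a table of 43 skin libraries and a table of 7 ear and dorsal libraries, 48 distinct libraries in all. Their methods mention a batch correction without details. No counts were used here; fragments per library were estimated from the steps between low FPKM values and run from 6.7 M to 29.0 M, so precision is limited by the number of libraries and, for genes under about 1 FPKM, by depth.

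Values were tested with limma 3.58.1 in R 4.3.3 on log2(FPKM + 1), with a variance trend, after a filter of at least 0.5 FPKM in 2 libraries (21257 genes in skin, 19299 in the ear table), with Benjamini-Hochberg adjustment over all genes tested and a threshold of 0.05. All 18 skin groups, or all 3 groups of the ear table, entered 1 fit, in which they share an estimate of the spread. Means, ratios and correlations were computed in Python 3.11.15 with pandas 2.3.3. The procedure was tested on simulated data. In the chin against dorsal comparison at refractory telogen (19606 genes tested) it recovered 88% of log2 changes of 1 and 98% of changes of 2. In the complex against ear skin comparison (18164 genes tested) it recovered 76% and 95%. Recovery for genes of low level was not looked at apart. Recovery in comparisons that use the 2 ventral refractory telogen libraries, the least alike of any pair, was not tested. All 40 members could be named. Of each other list, the 4 genes of highest mean FPKM were open to naming, and the 5 non-members of the likeness comparison were those closest to the mean of the members; marker genes named for library checks or at under 0.5 FPKM were chosen after their values were seen. The members and the gene lists were chosen with earlier results of these data known. Alternatives were a pseudocount of 0.1, no filter, median-of-ratios and TPM scaling, no variance trend, the libraries of a stage alone, a replicate block, each library left out in turn, and dorsal refractory telogen as the dorsal group of the ear table. Adjustment for GC content, leaving out doubted groups and averaging the 2 dorsal competent telogen libraries were added after the data were seen.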

Additional observations from a re-analysis of the deposited data

Results flagged for a closer look

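The course over the hair cycle differed between chin, ventral and dorsal skin for 39 of the 39 members tested (interaction of domain and stage by limma), where 73.3% of all genes tested did. The difference between the domains was tested as an interaction term. It was called for 39 members without any 1 of the libraries and for 38 without the chin late anagen and dorsal competent telogen groups.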

How the results depend on the processing

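Of the counts of members called, those with the pseudocount of 0.1, without the filter, with median-of-ratios scaling, without the variance trend, after GC adjustment and with the dorsal competent telogen libraries averaged stayed within 1.5 times of the values given in all 31 comparisons each, and so did the 3 ear counts with dorsal refractory telogen. The replicate block, which treats a number as the same in all groups, did so in 28 of 28. Whether the numbers pair libraries was not settled. Of 327 pairs with the same number, drawn from different groups across all stages, 9 had deviations correlated above 0.1 (median r 0.00). Of the 43 libraries, 16 correlated best with their own number. Pairs of the same stage were not looked at apart, so pairing within a stage cannot be told from these values. No paired analysis was possible for the ear table because the numbers in the names of the 2 ear skin columns are not those of the replicates in the labels, so that which column is which replicate was not settled. With TPM scaling the chin over dorsal count at mid-anagen was 10 and the chin over ventral count at catagen 8. With the libraries of that stage alone, the counts were 3 (chin over dorsal), 17 (ventral over dorsal) and 4 (chin over ventral) at mid-anagen, 22 at late anagen (ventral over dorsal), 11 at catagen (chin over ventral) and, at refractory telogen, 18 (ventral over dorsal) and 9 (chin over ventral). The construction of these fits, with fewer libraries, bears on them; the cause was otherwise not tested. Over the fits that left out 1 library each, the counts ran from 15 to 26 for ventral over dorsal skin at competent telogen, 18 to 29 for chin over dorsal at early anagen, 7 to 19, 16 to 28 and 6 to 23 for chin over dorsal, ventral over dorsal and chin over ventral at mid-anagen, and 15 to 24 and 2 to 13 for ventral over dorsal and chin over ventral at catagen. All other counts kept within 1.5 times. Of 183 pairs of a named gene and a comparison, 123 kept their side of the threshold under every setting. Signs that turned were, over the fits that left out 1 library at refractory telogen, those of Acly (log2 differences of −0.39 to 1.30), Gpam (−0.53 to 1.06) and Scd2 (−0.64 to 0.41) in ventral over dorsal skin and of Acsl1 (−0.07 to 1.37) in chin over ventral skin, each range running from one ventral library left out to the other, and, with dorsal refractory telogen in the ear table, Cfd (0.86) and Adipoq (1.99) in ear skin and Cfd (2.72), Adipoq (2.70) and Thrsp (2.61) in the complex. Scaling moved the median of all genes most for ventral over dorsal skin at competent telogen (0.25, 0.00 with median-of-ratios and 0.37 with TPM scaling), ventral refractory over competent telogen (−0.22, 0.00 and −0.36) and ear skin over dorsal skin (0.33, 0.02 and 0.51), and differences of that size in these comparisons depend on the scaling.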
